A study of Mus musculus with 17 samples.

Results

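The 37 genes described here encode the enzymes that build cholesterol and fatty acids and the proteins that set their transcription, and they were followed in stem cells sorted from mouse skin. The members were taken from a list of gene symbols and not selected by their values, though earlier results of these data were known. Of these members, 37 of 37 were present among the 35674 symbols of each of the 3 deposited expression tables. They were grouped by role into the mevalonate pathway (7 genes), the sterol branch that leads from squalene synthesis to cholesterol (11 genes), the regulators of the sterol response with a sterol carrier (6 genes), fatty acid synthesis from citrate and acetate (5 genes), and fatty acid elongation, desaturation and a glycerolipid step (8 genes). In the short fasting experiment, hair follicle stem cells (HFSCs) came from wild-type mice, with 3 libraries under feeding ad libitum, 3 after a 24 h fast and 3 after a 48 h fast. Epidermal stem cells (EpiSCs) of fed wild-type mice gave another 2. Long-term HFSCs came from wild-type mice after 6 months of either alternate-day fasting (ADF, taken on the day following a fast) or feeding ad libitum (AL), with 2 libraries each. A further 2 wild-type HFSC libraries were from the 2nd telogen, a resting phase of the hair cycle, and carry the treatment label Control. The sources used here state neither the ages of the mice nor the gates used for sorting, and the labels do not say whether replicate libraries came from separate mice, so the p-values measure the spread between these libraries, which may be technical.

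Cholesterol synthesis starts with the condensation of acetyl-CoA in the cytosol, passes through mevalonate and the isoprenoid diphosphates, and is committed to sterols when squalene is made. The genes of the route are targets of the sterol regulatory element-binding proteins (SREBPs), which the escort protein SCAP carries from the endoplasmic reticulum to the Golgi for activation when membrane sterol is low, while the INSIG proteins hold SCAP back when sterol is plentiful. SREBP activity also drives fatty acid synthesis, in which acetyl-CoA is drawn from citrate or acetate, carboxylated, polymerised, and then lengthened and desaturated. In skin, cholesterol and long fatty acids are lipids of the epidermal barrier, and sebaceous glands, which share the follicle with HFSCs, make fatty acids for sebum at a high rate.

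The promoters below belong to the 5 members whose levels differed between fasted and fed HFSCs in at least 1 of the scalings used below, and they are shown because motifs bound by SREBPs and their partner factors can be looked for in them. Each run is RefSeq's 250 bases before to 50 bases after a transcript start on the GRCm38.p6 build, the same assembly as mm10, written 5′ to 3′ on the gene's strand. Capitals mark matches, on either strand, to a sterol regulatory element written TCACNCCAC, to the CCAAT box (ATTGG where it lies on the opposite strand) and to the E-box CACGTG. The Hmgcs1 window is chr13:119690101-119690400 on the plus strand and holds a sterol regulatory element 137 bases before the start. Mvk is shown at chr5:114444019-114444318 (plus strand), Msmo1 at chr8:64733529-64733828 (minus), Insig2 at chr1:121332540-121332839 (minus, the first of its 3 listed starts) and Lpin1 at chr12:16610917-16611216 (minus). The other Insig2 windows held no match, and which start these cells use was not tested.
Hmgcs1: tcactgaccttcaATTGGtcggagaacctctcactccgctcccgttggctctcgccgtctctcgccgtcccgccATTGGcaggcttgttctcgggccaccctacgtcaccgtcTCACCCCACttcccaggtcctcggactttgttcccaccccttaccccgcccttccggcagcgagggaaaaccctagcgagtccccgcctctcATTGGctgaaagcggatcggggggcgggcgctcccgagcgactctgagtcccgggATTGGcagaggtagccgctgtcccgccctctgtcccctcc
Mvk: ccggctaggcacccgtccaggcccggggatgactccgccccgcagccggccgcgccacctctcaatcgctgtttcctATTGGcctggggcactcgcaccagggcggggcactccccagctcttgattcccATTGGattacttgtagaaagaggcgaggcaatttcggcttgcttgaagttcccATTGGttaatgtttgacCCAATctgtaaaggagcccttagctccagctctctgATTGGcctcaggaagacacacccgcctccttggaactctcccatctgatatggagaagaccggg
Msmo1: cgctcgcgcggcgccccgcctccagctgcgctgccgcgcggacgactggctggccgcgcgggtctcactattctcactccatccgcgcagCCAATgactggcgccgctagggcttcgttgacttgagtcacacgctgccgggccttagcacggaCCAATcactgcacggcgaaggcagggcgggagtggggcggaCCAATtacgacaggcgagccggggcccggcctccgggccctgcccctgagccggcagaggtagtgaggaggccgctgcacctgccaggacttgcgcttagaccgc
Insig2: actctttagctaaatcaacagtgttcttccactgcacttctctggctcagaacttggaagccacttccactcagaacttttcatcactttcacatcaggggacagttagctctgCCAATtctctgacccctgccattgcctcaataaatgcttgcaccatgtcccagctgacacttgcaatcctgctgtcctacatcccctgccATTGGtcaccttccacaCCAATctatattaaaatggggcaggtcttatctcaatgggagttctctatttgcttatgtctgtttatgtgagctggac
Lpin1: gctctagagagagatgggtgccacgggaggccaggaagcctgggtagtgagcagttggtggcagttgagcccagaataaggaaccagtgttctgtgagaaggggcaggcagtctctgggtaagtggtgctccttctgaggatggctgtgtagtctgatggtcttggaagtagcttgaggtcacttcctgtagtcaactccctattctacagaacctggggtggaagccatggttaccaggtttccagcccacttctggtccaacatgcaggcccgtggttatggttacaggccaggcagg
Of the 37 members, 30 had a promoter in the RefSeq table. A sterol regulatory element of these letters was found in 1 of the 30, Hmgcs1, against 1.24% of all 32851 promoters of the same length. The CCAAT box was found in 24 of 30 members and in 37.4% of all promoters, and the E-box in 6 of 30 (Dhcr7, Elovl5, Hsd17b7, Insig1, Sc5d and Scap) and in 7.15% of all. Several members have more than 1 listed start and were counted when any of them held a match, so the shares are descriptions and not a test. The Lpin1 window held no match to these letters.

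Levels are given in TPM as the authors deposited them, a transcript abundance scaled for length in which each library sums to 1e+06, and differences as log2 fold changes of TPM + 1, fitted with limma over all genes of a table. A difference was called when the Benjamini-Hochberg adjusted p over all genes tested was under 0.05. Libraries held 10422 to 12087 genes at 1 TPM or more. All 7 HFSC markers (Cd34, Lgr5, Krt15, Sox9, Lhx2, Nfatc1 and Itga6) reached 1 TPM in every HFSC group, against 4 of 7 in EpiSCs, where Lgr5 was listed at 0. Transcripts whose symbols start with mt-, which the mitochondrial genome encodes, made up 30.7% ± 4.56 of the TPM when fed, 27.5% ± 8.73 at 24 h and 10.02% ± 2.88 at 48 h of fasting in HFSCs (SD, n = 3 each). Their share was 3.22% in EpiSCs, 3.88% in long-term AL, 3.39% in long-term ADF and 3.46% in 2nd telogen HFSCs (means, n = 2 each). A lower mt- share raises the TPM of every other gene, so each comparison was repeated with TPM rescaled without these 13 symbols. Over all genes tested, the rescaling moved the median log2 fold change from -0.03 to -0.08 at 24 h, from 0.43 to 0.09 at 48 h, from 0.50 to 0.06 for EpiSCs and from 0.03 to -0.37 for telogen.

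The most abundant member of each role, by its mean over the 17 libraries, was Fdps, Ebp, Insig2, Acly and Elovl1 in the order of the roles above. Fdps, which makes farnesyl diphosphate, stood at 109, 54.0 and 67.7 TPM in the 3 ad libitum HFSC libraries, at 48.9, 52.0 and 45.0 TPM after 24 h, and at 44.9, 49.9 and 66.3 TPM after 48 h. Ebp, the sterol isomerase, stood at 38.7, 38.3 and 36.2 TPM in ad libitum libraries, 29.9, 27.6 and 29.3 TPM after 24 h and 27.1, 39.9 and 33.1 TPM after 48 h. In deposited TPM each 24 h value of both genes lay below each fed value and the 48 h values overlapped the fed range. After rescaling without mt- symbols the 24 h values of Fdps overlapped the fed range, and the 48 h values of both genes lay below it. Neither gene was called at either time. Acly, which cleaves citrate to cytosolic acetyl-CoA, was 18.8, 26.1 and 12 TPM in fed HFSCs, 33.7, 12.5 and 21.2 TPM at 24 h and 33.1, 29.7 and 29.1 TPM at 48 h. Elovl1, which elongates saturated fatty acids to very long chains, was 107, 85.1 and 90.4 TPM in fed HFSCs, 85.4, 53.3 and 95.5 TPM at 24 h and 106, 116 and 138 TPM at 48 h. The 48 h libraries of Acly all exceeded the fed ones in deposited TPM and overlapped them after rescaling, those of Elovl1 overlapped them on both scales, and neither gene was called. At the low end, the desaturase Scd2 read 0.207, 1.70 and 1.13 TPM in fed HFSCs, at most 0.0303 TPM at 24 h and was listed at 0 in all 3 libraries at 48 h. Its mean stayed under 1 TPM, so it was not tested in the fasting comparisons.

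Summed over the 18 mevalonate and sterol enzymes, with TPM rescaled without mt- symbols, the level was 663, 467 and 472 in fed HFSCs, 353, 399 and 421 at 24 h, and 408, 404 and 431 at 48 h. All 6 fasted libraries lay below all 3 fed ones on this scale. In deposited TPM the sums were 439, 348 and 318 in fed libraries, 286, 254 and 306 at 24 h and 355, 364 and 400 at 48 h, so that the 48 h sums overlapped the fed range. Over the 13 fatty acid and glycerolipid enzymes, the rescaled sum was 247 ± 13.3 when fed, 196 ± 26.7 at 24 h and 240 ± 33.6 at 48 h (SD, n = 3 each). The sums weight abundant genes most and were not tested.

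**Figure D1:**
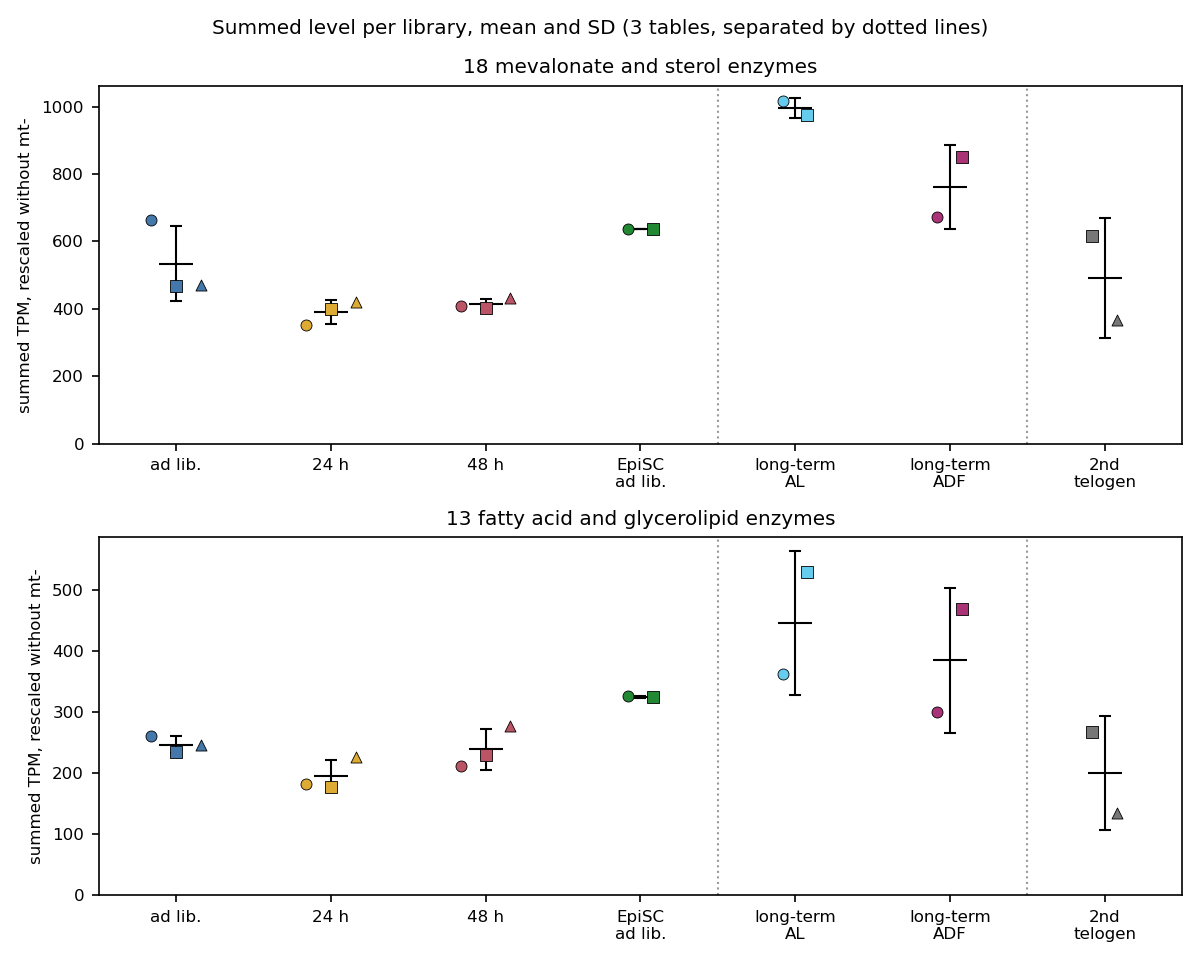
Summed TPM, rescaled without mt- symbols, of the 18 mevalonate and sterol enzymes (top) and the 13 fatty acid and glycerolipid enzymes (bottom) in each library, by group, with the mean and SD as black bars. Symbols mark the library number within a group, dotted lines separate the 3 tables, and sterol sums run from 353 at 24 h to 1017 in long-term AL.

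After 24 h without food, limma called 2 of the 35 members tested lower and 0 higher than in fed HFSCs. The 2 were enzymes of cholesterol synthesis: Mvk, the mevalonate kinase, and Msmo1, the methylsterol monooxygenase that strips methyl groups from the sterol nucleus. Over all genes tested, 1.60% were called lower and 1.47% higher. Mvk measured 34.5, 34.1 and 23.8 TPM in ad libitum libraries and 10.1, 8.24 and 15.5 TPM after 24 h, a log2 fold change of -1.39 (SE 0.35, limma adjusted p = 0.0432). Msmo1 measured 42.9, 20.4 and 16.2 TPM in ad libitum libraries and 4.78, 8.05 and 9.76 TPM after 24 h, a log2 fold change of -1.61 (SE 0.40, limma adjusted p = 0.042). For both genes every 24 h library lay below every fed library. Ad libitum library 1 was the highest for Msmo1, at 42.9 TPM against 20.4 for the next.

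The same 2 genes were called lower, and 0 members higher, among the 36 members tested after rescaling without mt- symbols, where 2.80% of all genes were called lower and 1.97% higher. An unadjusted p under 0.05 was reached by 11 of the 36, against 2449 of all 11896 genes. The log2 fold changes were then -1.48 for Mvk (limma adjusted p = 0.0212) and -1.70 for Msmo1 (0.0335). Both calls were close to the threshold. The Mvk call was lost in 8 of the 9 fits that left out 1 library, with adjusted p up to 0.184, and kept without 24 h library 3. The Msmo1 call was lost in 7 of 9, with adjusted p up to 0.234, and kept without 24 h library 2 or 3.

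Of the 35 members, 24 had a log2 fold change below 0 and 11 above at 24 h, and the member median was -0.37 against -0.03 over all genes. Of the members, 9 reached an unadjusted p under 0.05 in either direction, against 1972 of all 11533 genes. Within the mevalonate pathway 6 of 7 fold changes were negative, with the decarboxylase Mvd at -1.59 and the isoprenoid isomerase Idi1 at -1.16, neither called (limma adjusted p = 0.170 and 0.204). The exception was Hmgcs1, the synthase that makes HMG-CoA, at 0.99. In the sterol branch 8 of 11 were negative, among them the desaturase Sc5d at -1.07 (adjusted p = 0.141) and the squalene epoxidase Sqle at -0.91 (0.388). The largest negative value among fatty acid genes was that of Elovl6, which lengthens palmitate, at -1.77 (SE 0.57, limma adjusted p = 0.112). Its 24 h values of 0.147, 5.67 and 3.04 TPM all lay below the fed values of 14.0, 8.23 and 7.77 TPM.

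After 48 h, 3 members of 35 were called higher and 0 lower: Hmgcs1, the ER retention factor Insig2 and Lpin1, a phosphatidate phosphatase of glycerolipid synthesis. Over all genes 13.3% were called higher and 1.98% lower at this time. Hmgcs1 measured 17.4, 22.6 and 14.3 TPM in fed HFSCs, 35.0, 24.7 and 55.1 TPM at 24 h and 50.2, 54.9 and 69.6 TPM at 48 h. Its log2 fold change at 48 h was 1.64 (SE 0.32, 95% interval 0.96 to 2.32, limma adjusted p = 0.00378), and every fasted library at both times exceeded every fed one. HMG-CoA made by this enzyme is the last intermediate before mevalonate.

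Insig2 measured 33.3, 42.1 and 24.8 TPM when fed, 93.5, 54.3 and 51.7 TPM after 24 h, and 76.2, 75.7 and 105 TPM after 48 h. Its log2 fold change at 48 h was 1.35 (SE 0.30, 95% interval 0.72 to 1.97, limma adjusted p = 0.00727), again with no overlap between fed and fasted libraries at either time. In mouse liver, an Insig2 transcript is known to rise in fasting. Lpin1 measured 0.253, 1.70 and 1.42 TPM when fed, 1.85, 5.59 and 6.46 TPM after 24 h and 6.51, 13.5 and 11.9 TPM after 48 h. Its log2 fold change was 2.47 (SE 0.51, 95% interval 1.39 to 3.56, limma adjusted p = 0.00509), and the 48 h libraries all lay above the fed ones. Against 24 h the lowest 48 h value was 6.51 and the highest 24 h value 6.46 TPM, and after rescaling these groups overlapped (7.48 against 8.87). Lpin1 is likewise known to be raised in the fasted liver, where its protein also acts as a transcriptional coactivator.

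**Figure D2:**
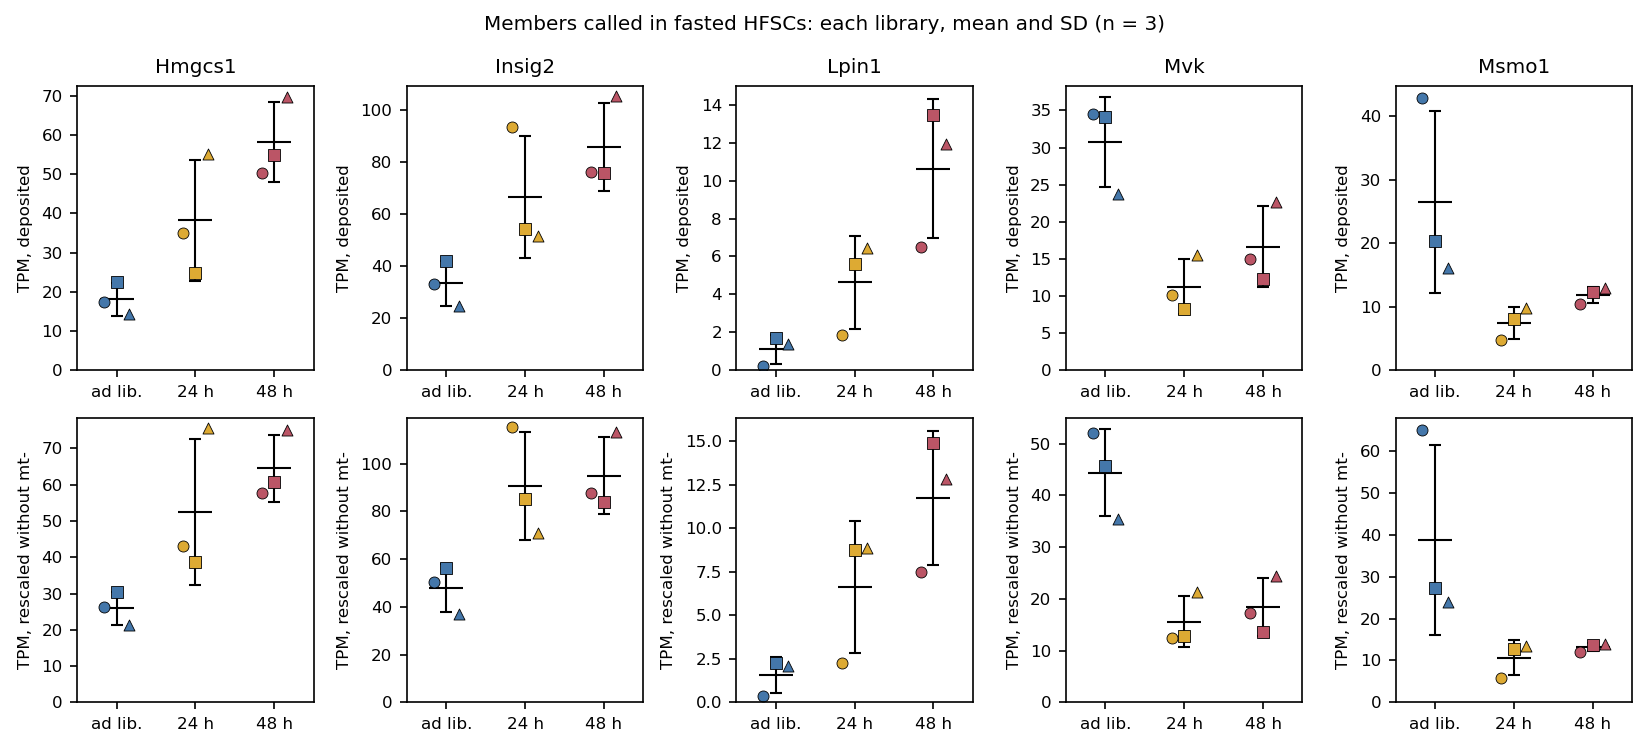
TPM of the 5 members called in fasted HFSCs, as deposited (top) and rescaled without mt- symbols (bottom), for ad libitum, 24 h and 48 h fasted HFSCs. Each symbol is a library (circle 1, square 2, triangle 3), bars give the mean and SD (n = 3), and Hmgcs1, Insig2 and Lpin1 lie higher in all 48 h libraries than in fed ones, while Mvk and Msmo1 lie lower in all 24 h libraries.

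With the mt- symbols left out, 5.93% of all genes were called higher and 4.20% lower at 48 h. The same 3 members were called higher, Hmgcs1 at 1.29 (limma adjusted p = 0.0116), Insig2 at 0.98 (0.0227) and Lpin1 at 2.35 (0.0169), and Mvk was then called lower at -1.24 (0.0272). Deposited TPM gave Mvk 15, 12.3 and 22.7 TPM at 48 h, below each fed value but not called (-0.87, limma adjusted p = 0.105). The calls of Hmgcs1, Insig2 and Lpin1 were kept in all 9 fits that left out 1 library. Members as a whole had a median of 0.22 at 48 h against 0.43 over all genes, and of -0.13 against 0.09 after rescaling.

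Between 48 h and fed HFSCs, 11 of 35 members reached an unadjusted p under 0.05 in either direction, against 3587 of all 11533 genes. These shares are close, so the count is no result about the members. Among the members not called, Acss2, which makes acetyl-CoA from acetate, stood at 4.61, 2.85 and 1.94 TPM when fed, at 0, 0.141 and 5.41 TPM after 24 h and at 7.89, 8.21 and 12.2 TPM after 48 h. The desaturase Fads1 measured 0.731, 2.61 and 1.67 TPM when fed and 3.10, 7.08 and 9.30 TPM at 48 h. The cyclase Lss measured 4.15, 4.82 and 3.30 TPM when fed and 14.3, 6.29 and 11.8 TPM at 48 h. For these 3 genes every 48 h library exceeded every fed one, with limma adjusted p of 0.148, 0.0691 and 0.0715. The same held in deposited TPM for Acat2 of the mevalonate pathway (54.0 to 65.3 against 34.5 to 35.5 TPM when fed). It also held for Fdft1 of the sterol branch (22.0 to 23.1 against 15.2 to 18.8 TPM) and, as given above, for Acly. Other members not called went the other way, with every 48 h library below every fed one. They were Elovl6 (2.21 to 3.42 against 7.77 to 14.0 TPM when fed), Mvd (1.07 to 3.05 against 4.71 to 8.11), Msmo1 (10.5 to 12.9 against 16.2 to 42.9) and Nsdhl (4.11 to 6.43 against 6.54 to 10.3). Mvk, not called in deposited TPM, lay below in the same way, as given above. The share of all genes without such overlap was not counted. The transcription factors Srebf1 and Srebf2 had log2 fold changes of 0.25 (95% interval -0.54 to 1.03) and 0.47 (-0.47 to 1.41) at 48 h, and Scap, their escort, 0.25 (-0.54 to 1.04). After rescaling, the values were -0.12 for Srebf1, 0.11 for Srebf2 and -0.11 for Scap, so that of Srebf1 and Scap the direction depends on the scale.

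**Figure D3:**
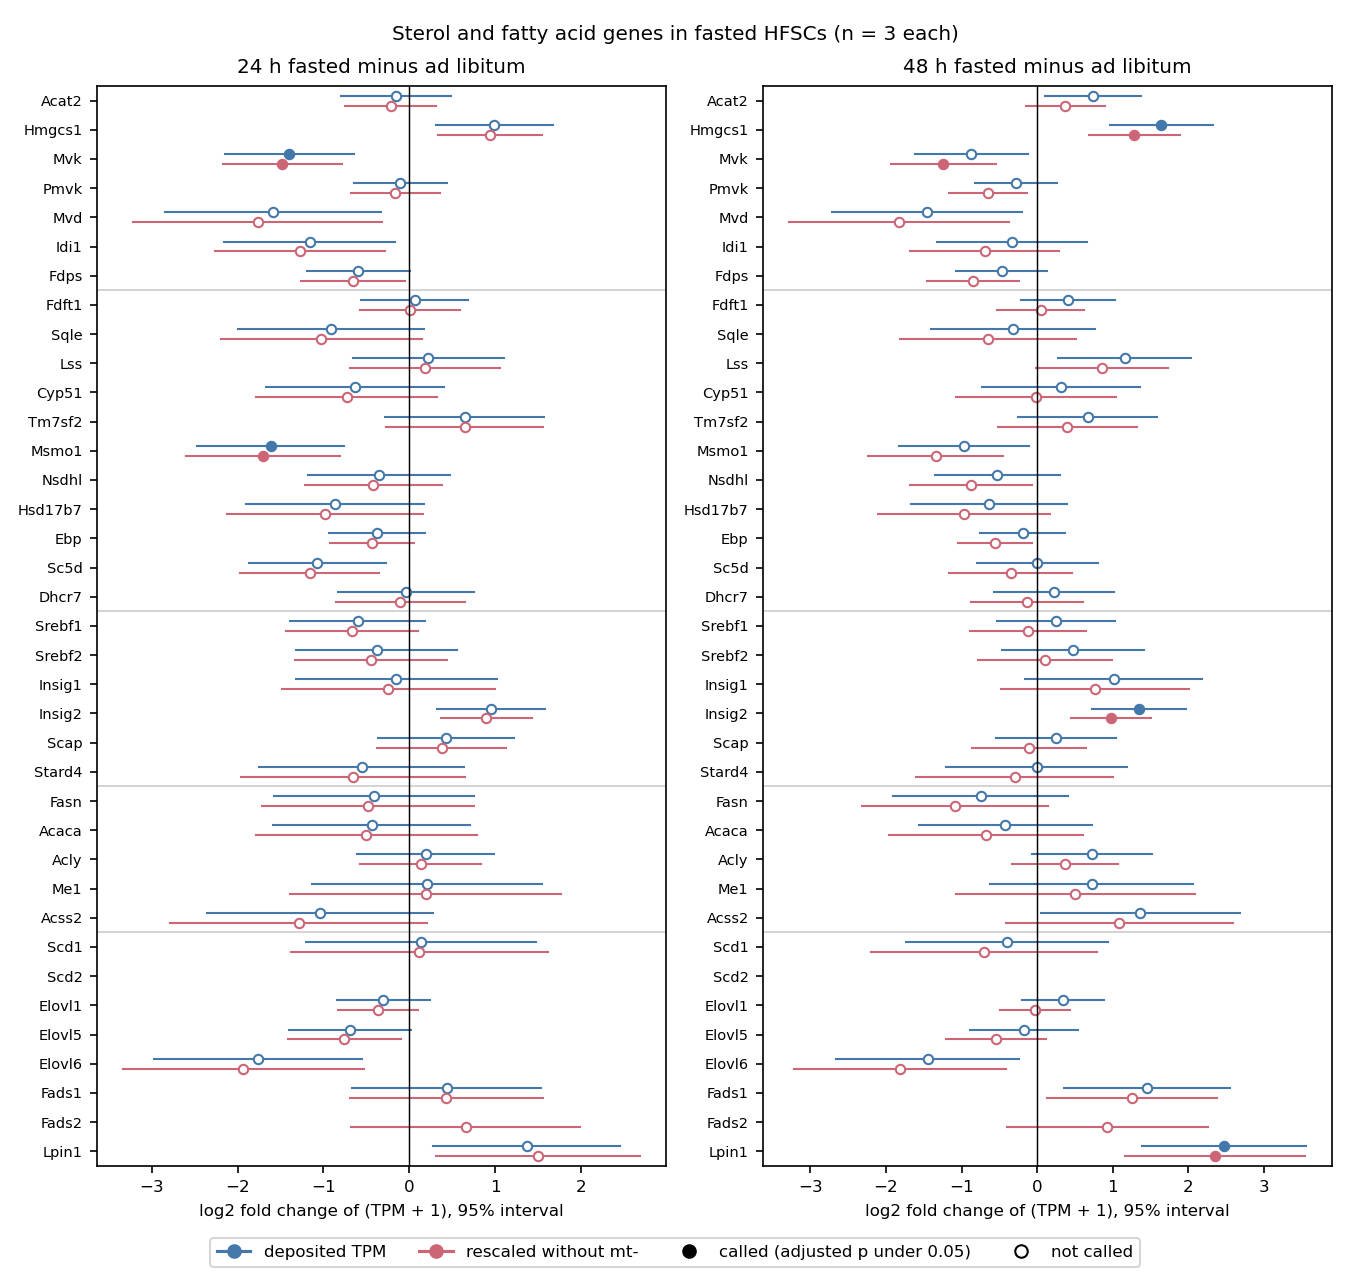
Log2 fold changes of TPM + 1 with 95% intervals for the members in 24 h (left) and 48 h (right) fasted against ad libitum HFSCs (n = 3 each), grouped by role, from deposited TPM (blue) and TPM rescaled without mt- symbols (red). Filled points were called, which holds for Mvk and Msmo1 at 24 h and for Hmgcs1, Insig2 and Lpin1 at 48 h on both scales, and for Mvk at 48 h on the rescaled one.

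Both fasting comparisons share the fed libraries. Between 48 h and 24 h directly, limma called 0 of 35 members higher and 0 lower, against 0.026% and 0.0173% of all genes. An unadjusted p under 0.05 was found for 7 members and for 2461 of all 11533 genes. After rescaling, 0 of 36 members were called in either direction, and 0% of all genes were called higher or lower. An unadjusted p under 0.05 was then found for 2 members and for 1071 of all 11896 genes. The member with the smallest p was Acss2, at a log2 fold change of 2.40 (SE 0.62, limma adjusted p = 0.126), which was called in the fit without 24 h library 3 (adjusted p = 0.0107). Marker levels of the sorted cells also differed between these groups. The summed TPM of the 7 HFSC markers ran from 37482 to 40658 in fed libraries, 19004 to 32388 at 24 h and 23050 to 32201 at 48 h. In EpiSCs the same sum read 34174 and 34836 TPM, so it does not by itself tell HFSCs from EpiSCs. The sum of 8 sebocyte markers ran from 8.37 to 13.1 TPM when fed, 10.4 to 33.4 at 24 h and 6.71 to 10.9 at 48 h. All these marker sums are of deposited TPM and were not rescaled. The mean mt- share of HFSCs was 30.7% when fed and 10.02% at 48 h. The sebocyte markers Mc5r, Pparg, Awat1, Dgat2l6 and Scd3 were listed at 0 in all 3 libraries at 48 h. Of these, Mc5r, Pparg and Dgat2l6 were also at 0 in all 3 fed libraries, and Scd3 in all 3 at 24 h. In bulk samples, fewer cells of a type and less RNA per cell cannot be told apart, and the part of these shifts in the member results was not tested.

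At 24 h, 1.47% of all genes were called higher, and 1972 of 11533 had an unadjusted p under 0.05. Among related genes that are no members, limma called 1 of 8 other sterol genes higher at 24 h, against 0 of 10 genes of SREBP processing and turnover, 0 of 6 of LXR signalling and sterol efflux and 0 of 18 of other fatty acid and glycerolipid synthesis, with 5, 0, 1 and 2 at an unadjusted p under 0.05. The 1 was Cyp27a1, a mitochondrial sterol hydroxylase that makes an oxysterol, at 4.77, 7.22 and 53.7 TPM when fed and 153, 138 and 185 TPM after 24 h (log2 fold change 3.53, limma adjusted p = 0.00387). Fed library 3 lay far above the other fed libraries for this gene, and all fasted libraries lay above it. After 48 h Cyp27a1 measured 163, 181 and 309 TPM (3.93, adjusted p = 0.000558).

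At 48 h, 2 of 8 other sterol genes (Cyp27a1 and the sterol reductase Lbr), 0 of 10 processing genes, 2 of 6 LXR and efflux genes and 4 of 18 other fatty acid genes were called higher, and 0 lower in the 4 lists, beside 13.3% of all genes called higher. Acsl3, which activates long-chain fatty acids to acyl-CoA, rose from 11.4 ± 6.89 to 79.2 ± 27.2 TPM (SD, n = 3 each; log2 fold change 2.82, limma adjusted p = 0.0013), and Lbr from 11.5 ± 5.10 to 39.7 ± 8.91 TPM (1.76, 0.0111). The LXR receptor gene Nr1h2, the LXR target Mylip, the carbohydrate-response factors Mlxipl and Mlxip, and Mid1ip1, which promotes the activity of acetyl-CoA carboxylase, were the others called. With mt- symbols left out, Cyp27a1, Lbr, Mlxip and Acsl3 were called higher at 48 h and the trans-enoyl reductase Tecr lower (-0.91, limma adjusted p = 0.0218), and Erg28, a scaffold of sterol enzymes in yeast, was called lower at 24 h (-0.79, 0.0499). Between 48 h and 24 h limma called 0 of the 8, 10, 6 and 18 genes tested in these lists, where 2, 4, 1 and 4 had an unadjusted p under 0.05. Of all 11533 genes, 2461 had such a p.

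Of the 35 members tested between EpiSCs and HFSCs of fed mice, 13 were called higher and 3 lower in EpiSCs, against 31.5% of all genes called higher and 9.10% lower. After rescaling without mt- symbols, 7 of 36 were higher and the same 3 lower, against 16.4% and 14.2%. The member median was 0.80 against 0.50 over all genes on the deposited scale and 0.34 against 0.06 on the rescaled one. The share of members called higher lay near that of all genes on either scale, so these counts are no result about the members.

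Among the mevalonate genes Hmgcs1 had the largest difference of any member, at 142 and 174 TPM in EpiSCs against 17.4, 22.6 and 14.3 TPM in HFSCs (log2 fold change 3.07, SE 0.26, limma adjusted p = 7.5e-05). It was the member whose call was kept in every fit without 1 library (adjusted p 0.000361 to 0.0118). Mvd ran the other way, with 0.851 and 0.891 TPM in EpiSCs and 7.58, 8.11 and 4.71 TPM in HFSCs (-2.03, SE 0.40, adjusted p = 0.00509). Pmvk, the phosphomevalonate kinase, was also lower, at 25.1 and 17.6 TPM against 50.2, 46.9 and 40.2 TPM (-1.08, SE 0.25, adjusted p = 0.0109). None of the 3 overlapped between the cell types, so 3 enzymes of the same short pathway differed in opposite directions.

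In the sterol branch, 5 of 11 genes were higher in EpiSCs and 0 lower on deposited TPM, beside 31.5% of all genes higher, and 2 of 11 after rescaling, beside 16.4%. Sc5d stood at 38.5 and 41.3 TPM in EpiSCs and 11.8, 11.7 and 11.6 TPM in HFSCs (1.68, SE 0.26, limma adjusted p = 0.00158). Dhcr7, the reductase that forms cholesterol from its last precursor, stood at 45.6 and 44.3 TPM against 18.4, 17 and 12.6 TPM (1.45, SE 0.27, adjusted p = 0.00386). Both were also called on the rescaled values, at 1.24 and 0.99. Ebp (69.7 and 52.0 TPM in EpiSCs), Hsd17b7 (11.2 and 9.91 TPM) and Tm7sf2 (9.03 and 8.44 TPM) were called on deposited TPM only, against 36.2 to 38.7, 2.48 to 5.48 and 1.82 to 4.45 TPM in HFSCs. Hsd17b7 and Tm7sf2 encode further reductases of the branch. The EpiSC values of all 5 genes lay above the HFSC values.

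Of the regulators, Scap differed most, with 73.4 and 66.4 TPM in EpiSCs and 11.8, 24.1 and 11.8 TPM in HFSCs (2.15, SE 0.34, limma adjusted p = 0.00193). It was called on both scales. Srebf1 stood at 67.3 and 63.7 TPM against 45.9, 24.3 and 37.2 TPM, and Srebf2 at 73.5 and 65.8 TPM against 31.5, 46.4 and 20.1 TPM. These were called on deposited values (0.90 and 1.14, adjusted p = 0.036 and 0.0256) and not on rescaled ones (0.43 and 0.68, adjusted p = 0.331 and 0.132).

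In fatty acid synthesis, 3 of 5 genes were called higher in EpiSCs on both scales, beside 31.5% of all genes on deposited TPM and 16.4% after rescaling. Me1, the malic enzyme that supplies NADPH, stood at 16.6 and 17.9 TPM in EpiSCs and 3.87, 1.41 and 0.591 TPM in HFSCs (2.78, SE 0.51, limma adjusted p = 0.0037). Fasn, the fatty acid synthase, stood at 21.2 and 21.0 TPM against 2.32, 5.80 and 8.02 TPM (1.91, SE 0.46, adjusted p = 0.0123), and Acly at 50.1 and 57.9 TPM against 18.8, 26.1 and 12 TPM (1.52, SE 0.33, adjusted p = 0.00798). For all 3 the cell types did not overlap. Acaca, which makes the malonyl-CoA that Fasn uses, was low in both, at 2.71 and 2.22 TPM against 0.498, 1.78 and 4.06 TPM, and its interval was wide (0.33, 95% interval -0.91 to 1.56).

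The elongases split between the cell types. Elovl5, which acts on polyunsaturated fatty acids, was lower in EpiSCs at 9.85 and 9.44 TPM against 18.8, 30.8 and 32.0 TPM (-1.37, SE 0.32, limma adjusted p = 0.0108). Elovl1 was higher at 185 and 175 TPM against 107, 85.1 and 90.4 TPM (0.93, SE 0.18, adjusted p = 0.00432), on deposited values only. Among related genes, Elovl4 and Elovl7, which also make long and very long chains, were called higher on both scales at 2.20 and 2.45 (adjusted p = 0.00143 and 0.00103).

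**Figure D4:**
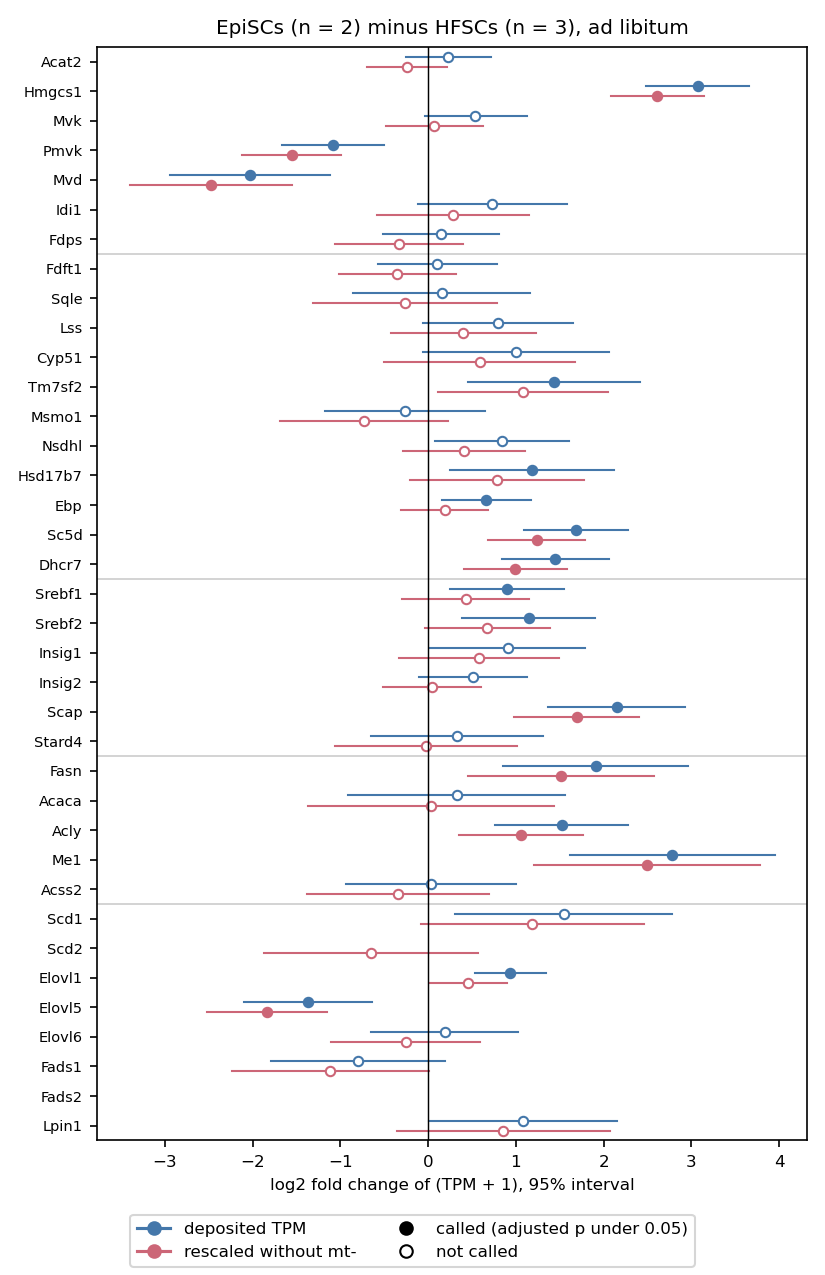
Log2 fold changes of TPM + 1 with 95% intervals for the members in EpiSCs (n = 2) against HFSCs (n = 3) of fed mice, grouped by role, from deposited TPM (blue) and TPM rescaled without mt- symbols (red). Filled points were called; Hmgcs1 lies farthest right at 3.07 and Mvd farthest left among called deposited values at -2.03.

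In the other lists, EpiSCs were called higher in 2 of 7 other sterol genes (Lbr and Coq2, the latter of ubiquinone synthesis), in 3 of 7 LXR and efflux genes with 1 lower, and in 5 of 17 other fatty acid genes, beside 31.5% of all genes called higher and 9.10% lower. The sterol exporter Abcg1 measured 9.70 and 12.2 TPM in EpiSCs against 0, 0.0137 and 0.292 TPM in HFSCs (3.44, limma adjusted p = 0.000333), and Npc2, a lysosomal sterol carrier, 34.7 ± 0.453 against 64.8 ± 2.02 TPM (SD, n = 2 and 3; -0.88, adjusted p = 0.00852). Neither group overlapped the other for these genes. Among genes of SREBP processing and turnover, Syvn1, Erlin2 and Fbxw7 were called higher, and in the remaining lists Mylip, Lpcat3, Acsl5, Gpam and Mid1ip1. After rescaling, Erlin2, Fbxw7, Abcg1, Elovl4, Elovl7, Acsl5, Gpam and Mid1ip1 were higher and Npc2 and Tmem97 lower. Fits without either EpiSC library left 1 library in that group and called fewer members, and also fewer genes over all. Without HFSC library 3 the members called were 8 higher and 3 lower. Over all genes, 2921 of 11763 were then higher and 970 lower, against 3711 and 1071 of 11774 with all libraries. Summed over 6 epidermal markers, EpiSC libraries read 28497 and 32216 TPM and fed HFSCs 5632 to 8417 TPM.

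After 6 months of alternate-day fasting, limma called 0 of 37 members higher and 0 lower than in long-term AL HFSCs. An unadjusted p under 0.05 was found for 9 members and for 1720 of all 12162 genes. Over all genes 0.00822% were called higher and 0% lower, so that with 2 libraries a group 1 gene of 12162 passed. The levels are therefore given as they stand. In 13 members both ADF libraries lay below both AL libraries, and in 8 both lay above, against 21.0% and 29.6% of all genes.

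The 13 lower ones held 10 of the 18 mevalonate and sterol enzymes: Hmgcs1, Mvk, Idi1, Fdps, Fdft1, Sqle, Cyp51, Msmo1, Hsd17b7 and Sc5d. Sqle, the oxygen-dependent epoxidase of squalene, stood at 67.3 and 92.6 TPM in ADF and 161 and 163 TPM in AL (log2 fold change -1.03, SE 0.23, limma adjusted p = 0.244). Msmo1 stood at 26.2 and 46.0 TPM against 63.2 and 84.9 TPM (-1.05, SE 0.33, adjusted p = 0.276), and Idi1 at 39.3 and 56.4 TPM against 86.8 and 76.4 TPM (-0.78, SE 0.26, adjusted p = 0.294). The 2 ADF libraries differed from each other for these 3 genes, library 1 being the lower, yet both stayed under the AL range. For Mvk the gap was small, at 16.1 and 15.6 TPM in ADF against 17.8 and 16.6 TPM in AL. Summed over the 18 enzymes in deposited TPM, ADF libraries read 647 and 825 and AL libraries 980 and 936.

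The regulators were arranged otherwise. Srebf1 stood at 26 and 22.8 TPM in ADF against 11.4 and 14.3 TPM in AL, Srebf2 at 82.8 and 88.2 TPM against 52.4 and 56.8 TPM, and Scap at 35.1 and 24.8 TPM against 10.3 and 15.2 TPM. The log2 fold changes were 0.88, 0.64 and 1.17, with limma adjusted p of 0.304, 0.297 and 0.269. All 3 genes were higher in both ADF libraries. Insig1 (10.9 and 14.0 TPM against 14.3 and 25.3 TPM) and Insig2 (82.6 and 61.6 TPM against 101 and 83.6 TPM) lay lower in both. Fads1, which introduces a double bond into polyunsaturated chains, stood at 19.0 and 17 TPM in ADF against 4.45 and 8.46 TPM in AL (1.4, SE 0.40, adjusted p = 0.268). Elovl1 stood at 89.1 and 85.7 TPM against 172 and 129 TPM (-0.77, SE 0.23, adjusted p = 0.275).

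The summed TPM of the 7 HFSC markers was also lower in both ADF libraries, at 35421 and 34940, than in both AL libraries, at 45927 and 42387. In EpiSCs of the short experiment this sum read 34174 and 34836, so it does not by itself tell HFSCs from EpiSCs. In both long-term groups library 2 carried more transcripts of sebaceous glands. The 8 sebocyte markers summed to 11.9 and 63.4 TPM in AL libraries 1 and 2 and to 9.41 and 98.7 TPM in ADF libraries 1 and 2, against at most 33.4 TPM in any other library. Scd1, the main desaturase of sebum, followed the same split, with 25.8 and 182 TPM in AL and 15.3 and 142 TPM in ADF (-0.54, 95% interval -3.27 to 2.19). Elovl6 did too, with 7.40 and 37.6 TPM in AL and 15.7 and 44.5 TPM in ADF. Scd1, Scd2, Scd3 and Scd4 are close paralogs whose reads the quantification could have split, so their levels are uncertain. Markers of 2 other cell types were higher in library 1 of both diets. The 3 melanocyte markers summed to 30.1 and 12.3 TPM in AL libraries 1 and 2 and to 79.9 and 18.9 TPM in ADF. The 6 fibroblast markers summed to 75.7 and 31.7 TPM in AL and to 38.2 and 26.7 TPM in ADF. Immune markers also differed between the groups, their 5 genes summing to 128 to 185 TPM in AL and 62.4 to 110 TPM in ADF. The part of these marker differences in the member levels was not tested. The fits that left out 1 long-term library called 0 members, and leaving out both libraries 2 leaves no replicate.

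**Figure D5:**
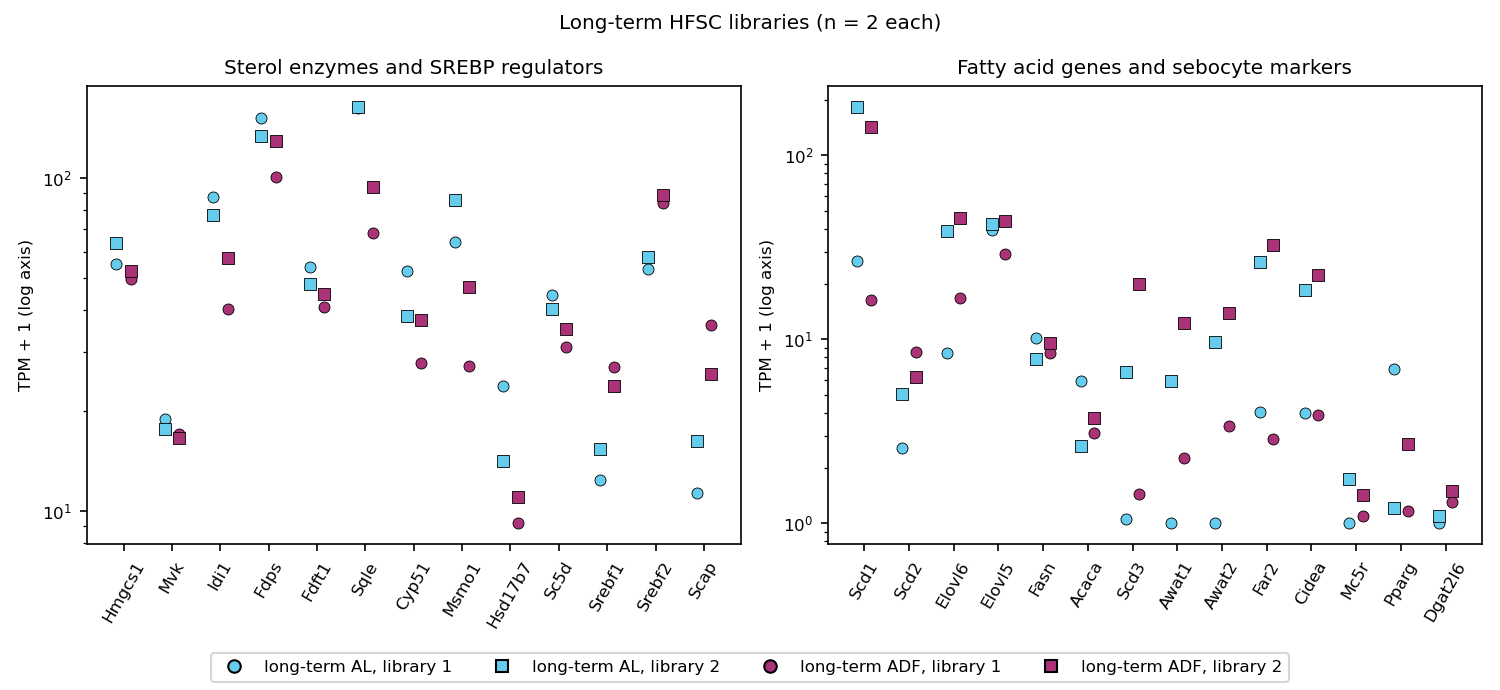
TPM + 1 on a log axis in each long-term HFSC library (n = 2 a group; circle library 1, square library 2) for mevalonate and sterol enzymes with SREBP regulators (left) and for fatty acid genes and sebocyte markers (right). The left panel holds only genes whose libraries did not overlap between the diets (10 of the 18 enzymes and 3 regulators). Their separation by diet follows from this choice, and 21.0% of all genes lay lower and 29.6% higher without overlap. On the right Scd1, Elovl6, Far2 and Cidea separate by library number instead.

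In the long-term table limma called 0 of 9 other sterol genes, 0 of 10 processing and turnover genes, 0 of 6 LXR and efflux genes and 0 of 20 other fatty acid genes, with 2, 3, 1 and 2 at an unadjusted p under 0.05. Of all 12162 genes, 1720 had such a p.

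Telogen HFSCs were compared with ad libitum libraries 2 and 3, whose columns were also in the telogen table, headed ana1 there. The groups were trimmed with different tools per the submitters' processing notes, and batch and hair cycle stage cannot be told apart. Sqle was called higher among the 36 members tested, at 67.9 and 21.7 TPM in telogen against 3.58 and 9.08 TPM in ad libitum HFSCs (log2 fold change 2.54, SE 0.56, limma adjusted p = 0.00416), and 0 members were called lower, with 2 at an unadjusted p under 0.05 in either direction. Over all genes 5.01% were called higher and 1.09% lower, and 1900 of 11618 had an unadjusted p under 0.05. On rescaled values Sqle was again the 1 member called higher (2.16, limma adjusted p = 0.0396) and 0 were lower, against 2.73% and 2.00% of all genes. An unadjusted p under 0.05 was then found for 3 members and for 2490 of all 11909 genes. Leaving out ad libitum library 2 or either telogen library ended the call, with adjusted p up to 0.328. The 5 immune markers summed to 46.3 and 48.4 TPM in the telogen libraries against 6.29 and 9.21 TPM in the ad libitum ones, and 6 fibroblast markers to 37.8 and 42.6 TPM against 17.9 and 22.7 TPM, each pair in ascending order. These sums are of deposited TPM and were not rescaled without mt- symbols. The part of these markers in the Sqle difference was not tested.

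Insig1, which like Insig2 retains SCAP and is itself an SREBP target, stood at 17.8 and 7.48 TPM in telogen against 2.67 and 1.51 TPM in the ad libitum libraries (2.06, SE 0.64, limma adjusted p = 0.0524), without overlap but just above the threshold. The 2 telogen libraries disagreed in the level of the whole route. Their rescaled sums over the 18 enzymes were 617 and 366, and for Hmgcs1, Idi1 and Msmo1 the values were 51.7 and 17.1, 35.4 and 11.2, and 35.8 and 11.5 TPM. The lower telogen library fell between the ad libitum values for Hmgcs1 and Idi1 and below them for Msmo1, so the groups overlapped. In the other lists Cyp27a1 was called lower (3.00 and 3.34 TPM against 7.22 and 53.7 TPM; -2.35, adjusted p = 0.0355), and Sirt1, a deacetylase that acts on SREBPs, was called higher (2.09, adjusted p = 0.022). After rescaling, Cyp27a1 remained called (-2.78, adjusted p = 0.0347) and Sirt1 did not.

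Set side by side across the tables, which were made separately and were not tested against each other, Sqle ran from 1.04 to 9.08 TPM in the short experiment, 21.7 to 67.9 TPM in telogen and 67.3 to 163 TPM in the long-term libraries. Insig1 ran from 0.568 to 8.89, 7.48 to 17.8 and 10.9 to 25.3 TPM. This order did not hold for all members. Mvk stood at 8.24 to 47.5 TPM in the short experiment, 17.6 to 18.8 TPM in telogen and 15.6 to 17.8 TPM in the long-term libraries. Mean Srebf1 was 35.8 TPM in fed HFSCs, 33.0 in telogen, 12.8 in long-term AL and 24.4 in long-term ADF. Mean Ebp was 37.7, 43.5, 29.8 and 36.9 TPM in the same groups. These ranges and means are of deposited TPM. After rescaling without mt- symbols the means were 52.4, 34.2, 13.3 and 25.3 for Srebf1 and 54.6, 45.1, 31.0 and 38.1 for Ebp. The order of fed and telogen HFSCs for Ebp thus depends on the scale.

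Some members share exonic sequence with neighbours in GENCODE M21 on mm10, and the sources used here do not say whether counting used strand. Fdft1 overlaps Ctsb, which reached 676 TPM, on the opposite strand over 18.3% of its exonic bases, and Cyp51 overlaps Akap9, which reached 357 TPM, over 3.8%. Tm7sf2 overlaps Vps51 (at most 62.7 TPM) on the same strand over 12.1%, and Fdps overlaps Gm43738 (at most 0.302 TPM) over 26.7%. Scap shares 13.2% with 5830462I19Rik, Hmgcs1 12.1% with the antisense gene Gm48342 and Idi1 9.2% with Gm48574, on opposite strands and with no level listed for these neighbours. Levels of these members are uncertain by an amount the files do not give. The genes with calls in fasted HFSCs lie at chr13:119690379-119708260 (Hmgcs1), chr5:114444269-114460591 (Mvk), chr8:64718139-64733792 (Msmo1), chr1:121304353-121332589 (Insig2) and chr12:16535669-16610966 (Lpin1) in that annotation, and all are protein-coding.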

How the data were processed

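Messenger RNA was profiled in 17 libraries of 7 groups, taken from the sample titles. For long-term ADF the title was followed where the treatment field reads ad libitum. The authors deposited TPM per gene symbol in 3 tables. The submitters' processing notes name mm10, Salmon 1.4.0 and DESeq2 1.36.0 throughout, plus fastp 0.23.1 (short experiment) or Trimmomatic 0.39 (the others), without their roles. TPM keeps no read counts, so depth is unknown and no counting interval was given. The telogen table holds 2 ad libitum columns identical to libraries 2 and 3 for 35674 of 35674 symbols within 1e-06 TPM, counted once, and its telogen columns could not be tied to numbered samples.

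From these values, log2(TPM + 1) was fitted with limma 3.58.1 (R 4.3.3, moderated test with a mean-variance trend, two-sided) for genes with a mean of at least 1 TPM over the libraries of a fit, adjusted by Benjamini-Hochberg over all genes. The + 1 understates changes of low genes. The 9 fasting HFSC libraries shared 1 fit, and the 5 fed EpiSC and HFSC, 4 long-term and 4 telogen-table libraries 1 each. Scripts were tested on simulated data. Values per library are printed for members called in any comparison and the most abundant member of each role, and other genes are named where they were called, apart from 1 that is not reported here. Further members named for their non-overlap or their split between libraries were chosen after their values were seen. The members and lists were chosen with earlier results of these data known. Alternatives were rescaling without mt- symbols, median-ratio scaling, a pseudocount of 0.1, no filter, each library left out, a replicate block, and fits of the 2 compared groups alone.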

Additional observations from a re-analysis of the deposited data

How the results depend on the processing

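No fold change of a called gene changed sign under an alternative. The member median at 48 h did, from 0.22 as deposited to -0.13 after rescaling and -0.24 under median-ratio scaling, as did Srebf1 and Scap at 48 h after rescaling. Between 24 h and fed HFSCs, the number of members called higher was 2 under median-ratio scaling (Hmgcs1 and Insig2) against 0 as reported, and the number lower was 0 with a pseudocount of 0.1, 0 without a filter, 0 with a replicate block and 0 with the 2 compared groups alone, against 2 as reported, and 1 with the block on rescaled values. Over all genes, median-ratio scaling called 306 of 11533 higher, against 169 as reported. All genes called lower, in the order above, were 122 of 11533, 34 of 18790, 139 of 11533, 82 of 11456 and 319 of 11896. As reported, 185 of 11533 were lower. At 48 h, the 2 compared groups alone gave 7 higher against 3, and the number lower was 1 after rescaling, 2 under median-ratio scaling, 3 with 2 groups alone and 1 with the block on rescaled values, against 0. Over all genes the 2 groups alone gave 2478 of 11576 higher, against 1537 of 11533, so the 7 are no result about the members. All genes called lower, in the order above, were 500 of 11896, 598 of 11533, 402 of 11576 and 458 of 11896. As reported, 228 of 11533 were lower. EpiSCs had 7 members higher after rescaling, 7 under median-ratio scaling and 7 without a filter, against 13. All genes called higher were then 1989 of 12109, 2007 of 11774 and 2969 of 17893, against 3711 of 11774. The long-term comparison gave 1 lower (Sqle, limma adjusted p = 0.0401) with a replicate block against 0. With this block 94 of all 12162 genes were called lower and 190 higher, against 0 and 1 without it. Telogen gave 2 higher under median-ratio scaling (Sqle and Insig1) and 0 without a filter, against 1. All genes called higher were then 643 of 11618 and 4 of 17889, against 582 of 11618. The cause was not tested, apart from the smaller number of libraries or larger number of genes that some alternatives have by construction.

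Leaving out 1 library at a time, the members called higher and lower ranged from 0 to 1 and 0 to 3 at 24 h, 3 to 6 and 0 to 2 at 48 h, 0 to 1 and 0 to 0 between 48 h and 24 h, 1 to 17 and 0 to 3 for EpiSCs, 0 to 0 both ways in the long term, and 0 to 1 and 0 to 0 for telogen. The 6 higher at 48 h were without 24 h library 2, where 2138 of 11570 genes were called higher, against 1537 of 11533 with all libraries. The 17 higher for EpiSCs were without HFSC library 2, where 4583 of 11664 genes were called higher, against 3711 of 11774. A group left with 1 library was assumed to vary like the others. Libraries with the same number in their titles did not deviate together (correlations from -0.131 to 0.052), so the block rests on shared numbers only. The descriptions number the EpiSC libraries 2 and 3, and those of the long-term libraries share no number. For telogen, no paired analysis was possible because its columns carry no replicate number. Depth is unknown, and low members such as Scd2, Fads2 and Acaca are the least certain.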
